A study of Mus musculus with 6 samples.

Results

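Integrins, the laminins, collagens and fibronectin that they bind, and the nidogens that join laminin to collagen IV were examined in mouse neuroblastoma N2a cells after knockdown of a circular RNA. The genes were chosen by name: every protein-coding gene named as an integrin alpha or beta chain, a laminin chain, a collagen chain, Fn1, Nid1 or Nid2. This gave 84 of the 54532 genes listed, of which 22046 are protein-coding. They are 44 collagens, 26 integrins, 11 laminins and 3 genes for fibronectin and the nidogens. RNA was sequenced from 3 libraries of cells transfected with si-NC, a control siRNA, and 3 libraries of cells transfected with si-circRtn4, an siRNA against circRtn4, a circular RNA made from exons of the Rtn4 gene. N2a (Neuro2A) is a single mouse neuroblastoma line, for which the labels give the strain C57BL/6. The study's methods name that strain for its mice and embryos and name none for N2a, so the label may not give the origin of the line. For both groups the labels name only the growth medium with serum, and give no time after transfection. The study's general methods moved N2a cells after transfection into a differentiation medium with little serum and retinoic acid, which drives neuronal differentiation, and harvested them later. Whether this was done for the sequenced cells is not stated. The labels also do not say whether the 3 libraries of a group came from separate cultures, so the p-values measure the spread between these libraries, which may be technical. The series compared both groups to find genes that differ after loss of circRtn4.

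The extracellular matrix is the protein network outside cells. Laminins are trimers of an alpha, a beta and a gamma chain, and together with networks of collagen IV they form basement membranes, the thin sheets that nerve cells and many other cells sit on. Integrins are pairs of an alpha and a beta chain in the cell membrane that hold on to these proteins and link them to the actin skeleton inside, and growing neurites use them to pull forward on laminin and fibronectin.

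Levels are given as FPKM, the fragments counted on a gene, scaled to its length and to the size of the library, so that genes can be compared with each other. The reads behind these values came to between 13541198 and 15122063 per library. In each library 100% of the values were whole reads, within 0.01 of a read. A small RNA gene, Gm23935, took 20.1% to 20.7% of the summed FPKM with si-NC and 13.5% to 18.8% of it with si-circRtn4. Rtn4, whose gene total includes its linear transcripts, was at 61.0, 66.8 and 69.8 FPKM with si-NC and at 50.1, 56.7 and 62.7 FPKM with si-circRtn4. These groups overlapped, and the change of -0.22 on the log2 scale had an adjusted p of 0.216. With replicate number as a block, the adjusted p of Rtn4 was 0.0447. The level of circRtn4 itself was not analysed here.

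The siRNA and the microRNA of the series title can pair with other mRNAs through a short seed at bases 2 to 8. They are shown because the sites that pair with these seeds were searched for in the matrix and integrin genes. For si-circRtn4 the guide is assumed to be the strand complementary to the one listed. Capitals mark the seed, or, in the listed strand, the bases it pairs with.

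si-circRtn4, listed strand: cttcagatgagACCCTTTt

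si-circRtn4, guide strand: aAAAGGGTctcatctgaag

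miR-24-3p: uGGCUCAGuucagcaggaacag

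The 84 genes spanned a wide range of levels. Of these, 22 reached a 6-library mean of 1 FPKM and were tested, 27 lay between 0.1 and 1 FPKM, and 35 were under 0.1 FPKM, with at most 12 reads in any library. The genes tested were 8 integrins, 9 collagens, 4 laminins and Fn1. Itgb1, the beta chain shared by most matrix-binding integrins, had the highest level, and its libraries ran from 176 to 211 FPKM. Col4a2 and Col4a1, the main chains of collagen IV, had means of 56.5 and 17.4 FPKM with si-NC. Col6a5 (42.5 FPKM), Itga6 (36.0 FPKM), Itgb5 (29.8 FPKM) and Lamc1 (28.8 FPKM) were the next highest after Col4a2. Just above the limit of 1 FPKM were Itgb3, Itga2b, Col6a1, Col17a1 and Col22a1, and just below it were Itga5, whose mean rounds to 1 FPKM, Col9a3, Col18a1, Col16a1 and Itgb4.

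**Figure D1:**
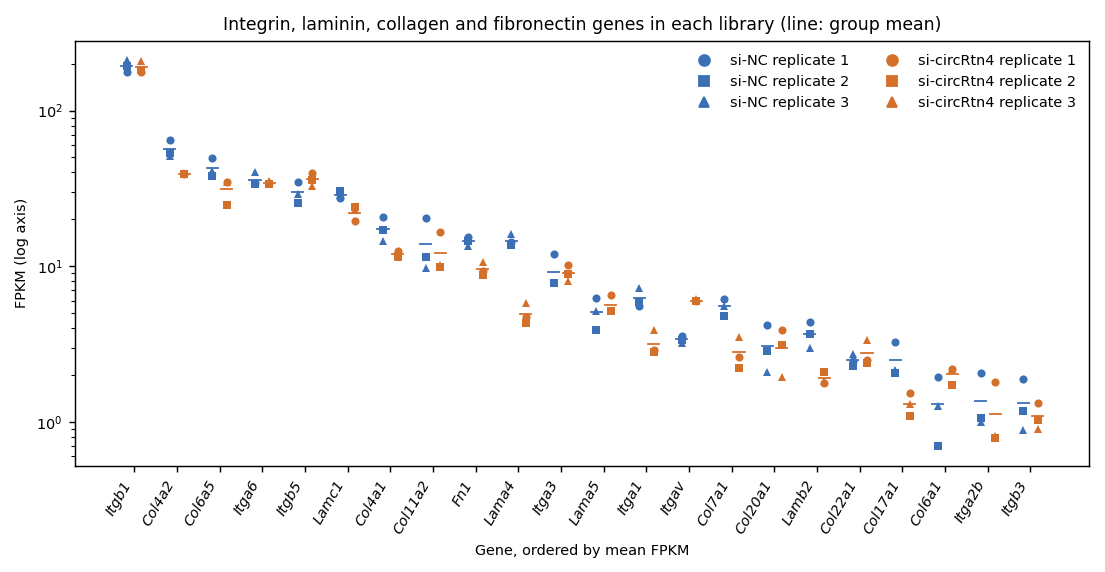
FPKM (log axis) of the 22 genes tested, ordered by mean. Each point is 1 library, its shape gives the replicate number and the short line is the group mean. Itgb1 lies above all others, between 176 and 211 FPKM in every library. The largest gap between the groups is that of Lama4, with 13.7 to 16.0 FPKM against 4.32 to 5.77 FPKM.

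With si-circRtn4, 8 of the 22 genes were lower and 1 was higher at an adjusted p under 0.05 (limma on log2(FPKM + 1), Benjamini-Hochberg adjustment over all 12749 genes tested). That is 36.4% lower and 4.55% higher, where over all genes tested 4.82% were called lower and 4.36% higher. The lower genes were Lama4, Lamb2 and Lamc1 among the laminins, Col4a1, Col4a2 and Col7a1 among the collagens, the fibronectin gene Fn1 and the integrin Itga1. The higher gene was the integrin Itgav. The other 13 genes did not pass the test. Log2 fold changes are those of FPKM + 1 unless another fit is named, so for low genes they understate the change of the FPKM means. The 3 libraries of each group did not overlap for 10 genes that were lower and 1 that was higher with si-circRtn4, while over all genes tested 15.5% were lower and 16.2% higher without overlap. The median change of the 22 genes was -0.15 on the log2 scale, against 0.002 for all genes. With replicate number as a block, 10 were called lower and 1 higher, where over all genes that fit called 9.75% lower and 9.29% higher, against the 4.82% and 4.36% without it. Col6a5 and Col17a1 were the genes added. On the TPM scale, where each library sums to the same total, 2 of the integrin and matrix genes were higher and 6 lower. Lamc1 and Col4a1 were then not called and Itga5, a gene below the limit in FPKM, was (1.26, adjusted p = 0.0401). Over the 15530 genes that reached a mean of 1 TPM, 876 (5.64%) were higher and 359 (2.31%) lower. With FPKM these were 556 and 615 of 12749 genes. With TPM computed without Gm23935, 542 of 16182 genes were higher and 490 lower.

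The groups did not overlap for any of the 9 called genes, so leaving out 1 library could not reverse a direction. Most of the calls rested on all 6 libraries. Without si-NC replicate 1, 2 or 3, 7, 4 and 7 of the 9 calls were kept. Without si-circRtn4 replicate 1, 2 or 3, 2, 2 and 5 were kept. Over all genes, each of these fits also called fewer than the 556 higher and 615 lower found with all 6 libraries. A loss of calls is thus not particular to the integrin and matrix genes. Lama4 and Itgav passed in all of these fits and were the only ones of the 9 to pass without si-circRtn4 replicate 1 or 2.

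**Figure D2:**
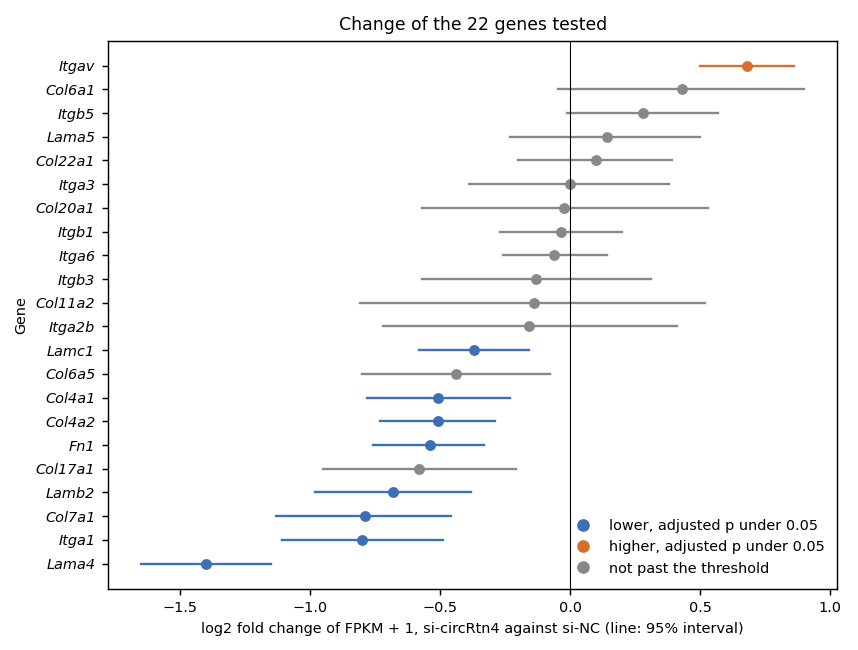
Log2 fold change of FPKM + 1, si-circRtn4 against si-NC, for the 22 genes tested. Points are estimates from limma and lines their 95% intervals, blue for genes called lower, orange for the gene called higher and grey for those not past the threshold. Itgav stands at 0.68 on the right and Lama4 at -1.40 on the left.

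Of the 4 laminin chains tested, 1 alpha, 1 beta and 1 gamma chain were called lower, while the other alpha chain was not. Lama4 encodes laminin alpha4, a short alpha chain found in vessel and nerve basement membranes (ENSMUSG00000019846, GRCm38 chr10:38965515-39110188, plus strand). It was at 14.2, 13.7 and 16.0 FPKM with si-NC and at 4.71, 4.32 and 5.77 FPKM with si-circRtn4. Every si-circRtn4 library was thus far below the lowest si-NC library. The mean went from 14.6 ± 1.2 to 4.93 ± 0.752 FPKM (SD, n = 3), which is 33.7% of the si-NC level, and Lama4 had the largest change of the 22 genes. The log2 fold change was -1.40 (SE 0.109) with an adjusted p of 0.00139, and it passed the test in all 6 fits that left out 1 library.

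Lamb2 encodes laminin beta2, the beta chain known from the neuromuscular junction and the kidney filter. Its levels were 4.35, 3.68 and 3.00 FPKM with si-NC and 1.77, 2.10 and 1.83 FPKM with si-circRtn4, with no overlap. The log2 fold change was -0.68 (SE 0.129, adjusted p = 0.0204), and it passed only without si-NC replicate 1 or 3 among the fits that left out a library (adjusted p up to 0.0753). The other common beta chain, Lamb1, had 0 to 7 reads in a library, so Lamb2 made up nearly all of the laminin beta FPKM. Lamc1 encodes gamma1, the gamma chain of most laminins. It was at 27.4, 30.2 and 28.8 FPKM with si-NC and at 19.5, 23.9 and 23.0 FPKM with si-circRtn4. The groups did not overlap, but the change was the smallest of those called, -0.37 (SE 0.0920), and the adjusted p of 0.0478 was near the threshold. In none of the 6 fits without 1 library did Lamc1 pass, with adjusted p-values up to 0.158.

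Lama5 encodes laminin alpha5, the long alpha chain of many mature basement membranes, which can take the place of alpha4 beside the same beta and gamma chains. It was at 6.24, 3.87 and 5.15 FPKM with si-NC and at 6.52, 5.16 and 5.19 FPKM with si-circRtn4. These values overlapped, and the difference of 0.14 had a 95% interval of -0.23 to 0.50 and an adjusted p of 0.641. The shares and the ratio of the alpha chains follow from the fall of Lama4, which was already called. They are given as a description, with no test. Lama4 accounted for 74.3% ± 4.45 (SD, n = 3) of the laminin alpha FPKM with si-NC and for 46.6% ± 5.48 with si-circRtn4, and Lama5 for 25.6% ± 4.42 and 53.1% ± 5.43. The ratio of Lama4 to Lama5 was 2.27, 3.55 and 3.10 with si-NC and 0.721, 0.837 and 1.11 with si-circRtn4. The sum of the alpha chains was 19.7 ± 1.88 FPKM with si-NC and 10.6 ± 0.932 FPKM with si-circRtn4. In both groups the sum of the gamma chains, 29.3 ± 1.3 and 22.8 ± 2.30 FPKM, was above that of the alpha chains, and the sum of the beta chains, 3.73 ± 0.656 and 1.99 ± 0.169 FPKM, was below it.

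**Figure D3:**
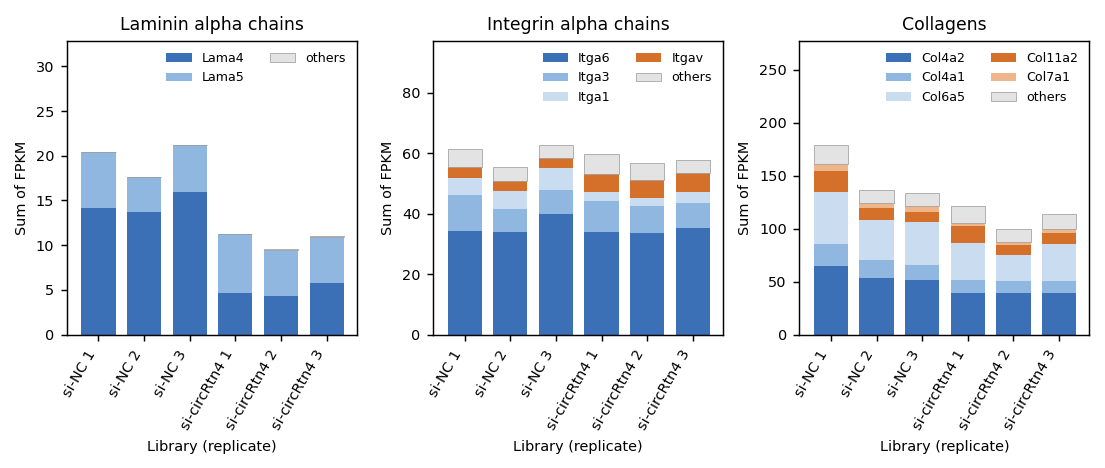
Summed FPKM of laminin alpha chains, integrin alpha chains and collagens in each of the 6 libraries, with each bar split by gene. The laminin alpha sum lies between 17.6 and 21.2 with si-NC and between 9.53 and 11.3 with si-circRtn4. The integrin alpha sum stays between 55.5 and 62.7 in all libraries, while the shares of Itgav and Itga1 within it differ between the groups.

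Among the collagens, 3 of the 9 genes tested were called lower, with a median change of -0.44. Collagen IV is the network collagen of basement membranes, made mostly of alpha1 and alpha2 chains. Col4a2 was at 64.6, 53.6 and 51.3 FPKM with si-NC and at 39.1, 38.9 and 39.5 FPKM with si-circRtn4. The si-circRtn4 libraries were close to each other and all were below the si-NC libraries. The log2 fold change was -0.51 (SE 0.0956, adjusted p = 0.0196). Col4a1 was at 20.6, 17.0 and 14.6 FPKM with si-NC and at 12.5, 11.6 and 11.5 FPKM with si-circRtn4, a log2 fold change of -0.51 (SE 0.118, adjusted p = 0.0392). Both genes kept their order of level, Col4a2 above Col4a1, in every library. Their ratio was 3.26 ± 0.208 with si-NC and 3.31 ± 0.156 with si-circRtn4 (SD, n = 3; two-sided exact permutation test, p = 1.0). The 4 other collagen IV chains were at or near 0: Col4a5 had 0 reads in all 6 libraries, where 3 reads would be 0.0287 to 0.0319 FPKM, Col4a3 and Col4a6 had at most 3 reads in a library, and Col4a4 was under 1 FPKM. The call of Col4a1 held only without si-NC replicate 3 among the 6 fits that left out a library (adjusted p up to 0.115), and that of Col4a2 without si-NC replicate 1 or 3 (up to 0.0699).

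Col4a1 and Col4a2 lie head to head on chromosome 8 and share a bidirectional promoter. The DNA between their starts is shown as a description, and whether the promoter had a part in the change of either gene was not tested. In GRCm38.p6 the RefSeq promoter table places the start of Col4a1 (minus strand) at 11312826 and that of Col4a2 (plus strand) at 11312805. The 22 bases from one start to the other are in capitals in the plus-strand sequence of chr8:11312801-11312830.

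Col4a1 and Col4a2 starts: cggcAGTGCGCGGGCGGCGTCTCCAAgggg

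The promoter windows of both genes, 250 bases before to 50 bases after the start, had a GC content of 74.0% and 73.7%, against a median of 52.7% over all promoters. The motif GGGCGG, searched for on both strands, was found 1 time in the Col4a1 window and 3 times in that of Col4a2, and in 35.7% of 32851 promoters. CCAAT, also on both strands, was found 1 time in each, and in 37.4% of all promoters. Of the 16 genes tested that had a promoter in the table, 10 held GGGCGG and 5 held CCAAT. These counts are per gene tested, while the shares above are over all promoters, of genes tested or not, so they are not directly comparable. The matches are of letters only, and the windows of the Col4a1 and Col4a2 promoters share 78 bases. The annotated spans of Col4a1 and Col4a2, introns included, overlap by 22 bases. That of Col4a1 shares 6081 bases with an antisense gene, Gm15418, at 4.89 ± 1.25 FPKM with si-NC and 5.63 ± 1.22 FPKM with si-circRtn4. Whether exons of Col4a1 and Gm15418 overlap there was not checked. Whether the counting used strand is not given in the sources used here, so reads from any shared exon bases may not have been told apart.

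Col7a1 encodes collagen VII, which forms the anchoring fibrils under epithelia. It was at 6.18, 4.82 and 5.54 FPKM with si-NC and at 2.62, 2.22 and 3.52 FPKM with si-circRtn4. All si-circRtn4 libraries were below the si-NC libraries, and the mean was 50.5% of the si-NC level. The log2 fold change was -0.79 (SE 0.144, adjusted p = 0.0178), and the adjusted p was up to 0.0611 without si-NC replicate 3 or si-circRtn4 replicate 1 or 2. Col17a1, a collagen that spans the membrane of epithelial cells, had lower libraries as well, 3.24, 2.07 and 2.16 against 1.54, 1.09 and 1.31 FPKM. It did not pass the main test, with a log2 fold change of -0.58 and an adjusted p of 0.0639, but had 0.0240 with replicate number as a block, 0.0164 with limma-voom on the recovered reads and 0.0450 after quantile normalization.

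Col6a5 encodes collagen VI alpha5, a chain that can stand in for alpha3 in collagen VI, the beaded filaments of connective tissue. Its levels were 49.2, 37.9 and 40.6 FPKM with si-NC and 34.6, 24.6 and 34.9 FPKM with si-circRtn4. The groups did not overlap, yet the spread within each was wide, and the change of -0.44 (SE 0.154) had an adjusted p of 0.125 and of 0.0244 with the block. By limma-voom the adjusted p was 0.061, and 0.0485 with its filter at 0.1 FPKM, a fit added after the values had been seen. The chains it is known to join were low. Col6a1 was at 1.3 ± 0.62 and 2.03 ± 0.256 FPKM, and Col6a2 and Col6a3 had at most 12 reads and 1 read in a library. Col6a5 alone was 96.7% of the collagen VI FPKM with si-NC and 93.2% with si-circRtn4. Col11a2, a chain of the cartilage fibril collagen XI, was likewise present at 9.70 to 20.5 FPKM while its partner Col11a1 had 0 reads in all libraries, where 3 reads would be 0.0151 to 0.0168 FPKM. Its groups overlapped almost fully, with an adjusted p of 0.801. The fibril-associated collagens Col20a1 and Col22a1, at 1.95 to 4.21 and 2.28 to 3.37 FPKM, had adjusted p-values of 0.966 and 0.682. The fibril collagens of connective tissue were close to absent: Col1a2 and Col3a1 had at most 2 reads and 1 read in a library, and Col1a1 at most 24 reads. The FPKM of all 44 collagens summed to 179, 137 and 134 with si-NC and to at most 121 in the si-circRtn4 libraries, with means of 150 ± 25.1 and 112 ± 10.6 (SD, n = 3).

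Fn1 encodes fibronectin, a large dimer that many cells lay down and that integrins hold through its RGD motif. It was at 15.4, 14.5 and 13.5 FPKM with si-NC and at 9.33, 8.84 and 10.7 FPKM with si-circRtn4. The groups were clearly apart, with a mean at 66.6% of the si-NC level. The log2 fold change was -0.54 (SE 0.0919, adjusted p = 0.0142), and the adjusted p was up to 0.0585 without si-NC replicate 2 or si-circRtn4 replicate 1 or 2. The nidogens, which bridge laminin and collagen IV, could not be compared at this depth, since Nid1 had 1 to 10 reads in a library and Nid2 at most 1.

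Of the 8 integrins tested, 1 was called higher, 1 lower and 6 neither, with a median change of -0.049. Itgav encodes the alphaV chain, which binds RGD motifs in fibronectin and vitronectin (ENSMUSG00000027087, chr2:83724397-83806916, plus strand). It was at 3.56, 3.36 and 3.22 FPKM with si-NC and at 5.93, 5.94 and 6.11 FPKM with si-circRtn4. The spread within each group was small next to the gap between them. The mean rose from 3.38 ± 0.171 to 6.00 ± 0.101 FPKM (SD, n = 3), a 1.78-fold change. On the scale of log2(FPKM + 1) the change was 0.68 (SE 0.0765, adjusted p = 0.00352), and it passed in all 6 fits without 1 library. Itga1 encodes alpha1, a receptor for collagen IV and laminin when paired with beta1 (ENSMUSG00000042284, chr13:114953096-115101964, minus strand). It was at 5.58, 5.91 and 7.28 FPKM with si-NC and at 2.89, 2.79 and 3.87 FPKM with si-circRtn4, a fall to 50.9% of the si-NC level. The log2 fold change was -0.80 (SE 0.133, adjusted p = 0.0135), and the adjusted p was up to 0.0527 without si-circRtn4 replicate 1 or 2. The gene Pelo lies on the same strand inside Itga1 and shares 1832 bases with it, counted over whole gene spans with introns. Gm49395, another protein-coding gene on that strand at a mean of 0.43 FPKM, shares 66649 bases. Whether exons overlap, and so whether reads there could be assigned to either gene, was not checked. Pelo was at 14.1 ± 0.871 and 14.7 ± 1.48 FPKM with si-NC and si-circRtn4, which overlapped.

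The partners of these chains did not pass the test. Itgb1 was at 177, 194 and 211 FPKM with si-NC and at 176, 183 and 209 FPKM with si-circRtn4. The values of both groups covered nearly the same range, and the difference of -0.036 had a 95% interval of -0.27 to 0.20 (adjusted p = 0.863). Itgb5, which pairs with alphaV, was at 34.7, 25.4 and 29.2 FPKM against 39.9, 36.0 and 32.7 FPKM, a difference of 0.28 with an interval of -0.011 to 0.57 and an adjusted p of 0.208. Itgb3, the other classical partner of alphaV and of the platelet chain Itga2b, was at 0.884 to 1.89 FPKM over the 6 libraries, and Itga2b at 0.789 to 2.05 FPKM. Their adjusted p-values were 0.721 and 0.745. The laminin receptors Itga6 and Itga3 were also among those not called. Itga6 was at 34.2, 33.8 and 40.0 FPKM against 34.1, 33.5 and 35.4 FPKM, with an interval of -0.26 to 0.14, and Itga3 was at 7.74 to 12 FPKM against 8.03 to 10.1 FPKM, with an interval of -0.39 to 0.38.

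Summed over all 18 alpha chains, the integrins were at 59.9 ± 3.85 FPKM with si-NC and 58.1 ± 1.60 FPKM with si-circRtn4 (two-sided exact permutation test, n = 3 each, p = 0.5). The 8 beta chains summed to 226 ± 14.5 and 228 ± 14.5 FPKM (same exact test, p = 0.8). Within the alpha sum, Itga6 was the main chain, with 60.1% and 59.2%. The share of Itgav was 5.79%, 6.05% and 5.13% with si-NC and 9.93%, 10.5% and 10.6% with si-circRtn4, and that of Itga1 was 9.07%, 10.7% and 11.6% against 4.83%, 4.93% and 6.68%. These 2 chains are the ones called in opposite directions, so their shares are given as a description with no test.

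The genes under 1 FPKM rest on few reads, and their calls depended on the method. For the 27 genes between 0.1 and 1 FPKM, limma with the limit lowered to 0.1 FPKM called none, and the lowest adjusted p was 0.0597. In that fit of 20064 genes, 1.94% were called higher and 2.16% lower, also at an adjusted p under 0.05. At an unadjusted p under 0.05, it found 4 of the 27 higher and 1 lower. No share of all genes at that looser threshold is given here, so these counts cannot be read as an excess. Limma-voom, which weights the recovered reads by their precision and was added after these values had been seen, called 5 of the 27 higher and 1 lower, where it called 4.46% of all genes higher and 4.09% lower. Itga5, the fibronectin receptor chain, was at 0.672, 0.380 and 0.319 FPKM with si-NC and at 1.91, 1.77 and 0.948 FPKM with si-circRtn4. Its reads summed to 99 and 338, and the log2 fold change by limma-voom was 1.75 (adjusted p = 0.0053), against an adjusted p of 0.0656 with limma. Itgal, the alpha chain of the leukocyte receptor LFA-1, was at 0.756, 1.01 and 1.03 FPKM against 0.278, 0.186 and 0.482 FPKM, with 266 and 91 reads (-1.65, adjusted p = 0.00389 by limma-voom and 0.0597 by limma). The other 4 genes that limma-voom called were higher: Col4a4 (1.60, 36 against 111 reads), Col14a1 (1.52, 41 against 123 reads), Itgb4 (0.80, 174 against 305 reads) and Itga8 (0.76, 156 against 270 reads). The mean of Col4a4 was 0.0786 FPKM with si-NC and 0.236 FPKM with si-circRtn4, so it passed the limit of 0.1 FPKM only through the group in which it was higher, which favours such a call. Itgb4 pairs with alpha6 as a laminin receptor, and Itga8 encodes another RGD-binding chain. The 35 genes under 0.1 FPKM were not tested, and 4 of them had 0 reads in all libraries: Itgam, Itgb8, Col4a5 and Col11a1.

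**Figure D4:**
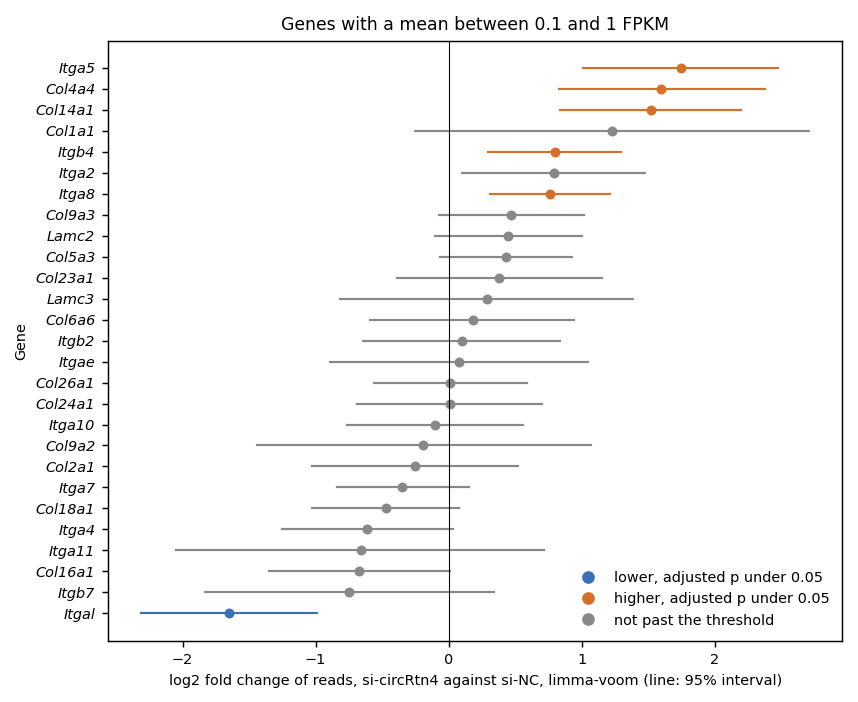
Log2 fold change of the recovered reads by limma-voom, si-circRtn4 against si-NC, for the 27 genes with a mean between 0.1 and 1 FPKM. Points are estimates and lines 95% intervals, orange for the 5 genes called higher, blue for the 1 called lower. Itga5 is at 1.75 and Itgal at -1.65, and most of the other intervals include 0.

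For each gene the longest 3′ UTR in GENCODE M21 (GRCm38) was searched for sites of these 2 seeds. The site ACCCTTT, which pairs with the guide seed of si-circRtn4, was present in 3 of the 22 genes (13.6%) and in 12.5% of 10694 genes. Of the 9 called genes only Lamc1 held it. The site CTGAGCC, which pairs with the seed of miR-24-3p, was present in 2 of the 22 genes (9.09%) and in 19.6% of all, and in 0 of the 9 called genes. The stretches that hold these sites are printed with the site in capitals, on the strand of the gene. That of Lamc1 lies at chr1:153218923-153218929 on the minus strand, at the very end of the 3′ UTR.

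Lamc1: aatatttgtaACCCTTTa

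Col22a1: aaaacatggcACCCTTTaacatttatt

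Itgb3: ggacacactgACCCTTTcttgaagagg

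Col11a2: gccagtggctCTGAGCCactgtcctgg

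Itga3: ccttgcaatgCTGAGCCcagcacagcc

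The other 4 sites lie at chr15:71796619-71796625 (minus strand) in Col22a1, chr11:104668848-104668854 (plus strand) in Itgb3, chr17:34066531-34066537 (plus strand) in Col11a2 and chr11:95045424-95045430 (minus strand) in Itga3. None of these 4 genes passed the test. A match is a description of the sequence, and whether a site was bound was not tested.

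Genes that work with the integrins and the matrix were examined in 5 lists, with 36, 20, 17, 18 and 16 genes tested. Of these, 9 genes were called higher and 12 lower. Over all genes tested, 4.36% were called higher and 4.82% lower, and with the replicate block 9.29% and 9.75%. Among 36 genes tested of the machinery that links integrins to actin, 2 were higher and 1 lower (median 0.031), or 8.33% in either direction, which is near the share over all genes. Fyn, a Src family kinase active at adhesions, was at 13.3, 12.3 and 14.8 FPKM with si-NC and at 25.6, 25.2 and 23.7 FPKM with si-circRtn4 (0.84, adjusted p = 0.00283). Parva, or alpha-parvin, a partner of integrin-linked kinase, was at 13.5, 13.7 and 13.0 FPKM against 8.65, 8.27 and 9.46 FPKM (-0.56, adjusted p = 0.0064). Both genes had no overlap between groups and passed in every fit without 1 library. Zyx, the adhesion protein zyxin, was higher by 0.39 (adjusted p = 0.0449). With the replicate block, 9 genes of this list were higher and 2 lower.

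Of 20 genes tested for the modification, folding and cross-linking of collagen, 1 was higher and 5 were lower (median -0.19). Pcolce, which speeds the trimming of fibril procollagens, had the largest change, from 27.7, 22 and 26.2 FPKM to 8.51, 8.34 and 11.5 FPKM (-1.34, adjusted p = 0.00283). Mia3, or TANGO1, which loads collagen into export vesicles, was at 67.1, 68.1 and 72.9 FPKM against 39.7, 39.6 and 42.5 FPKM (-0.76, adjusted p = 0.00254). Pxdn, P3h3 and Crtap were the other lower genes, and Pxdn, or peroxidasin, cross-links collagen IV. Serpinh1, the collagen chaperone HSP47, was higher, at 1.33 ± 0.0481 and 2.69 ± 0.470 FPKM (0.65, adjusted p = 0.0214).

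In the list of other matrix proteins, 2 of 17 genes tested were higher and 3 lower (median -0.25). Hspg2 encodes perlecan, a heparan sulfate proteoglycan of basement membranes, and was at 9.77, 9.5 and 9.36 FPKM with si-NC and at 4.99, 5.09 and 4.92 FPKM with si-circRtn4 (-0.81, adjusted p = 0.00143). Agrn, or agrin, another basement membrane proteoglycan, was lower as well, at 44.3 ± 2.36 and 32.7 ± 1.27 FPKM, and so was Egfl7. Mfge8, a secreted protein that binds alphaV integrins by an RGD motif, was higher (2.68 ± 0.488 and 6.84 ± 1.10 FPKM, log2 change 1.09, adjusted p = 0.00553). The other gene called higher was Matn3, the cartilage protein matrilin-3, at 0.470 and 1.62 FPKM (0.84, adjusted p = 0.0204). It passed the limit of 1 FPKM only through the si-circRtn4 libraries, which favours a call of higher. Among 18 other matrix receptors, 1 was higher and 2 lower (median -0.12). The proteoglycan Sdc3 (syndecan-3) was at 30.1 ± 2.80 and 16.6 ± 0.987 FPKM (-0.82, adjusted p = 0.0032), and Bcam, a receptor for laminin alpha5, at 2.45 ± 0.153 and 1.05 ± 0.0655 FPKM (-0.76, adjusted p = 0.0091). Sgcb, a sarcoglycan, was higher by 0.37 (adjusted p = 0.0438). Of 16 matrix proteases and inhibitors, 3 were higher and 1 lower (median 0.028). The higher ones were Mmp15 (0.66, adjusted p = 0.0194), Plaur (0.53, adjusted p = 0.0342) and Adam12 (0.52, adjusted p = 0.0402), and the lower one was Timp2, an inhibitor of matrix metalloproteases. With the replicate block, 7 genes were called lower and 2 higher in each of the lists of collagen modification, other matrix proteins and other matrix receptors, and 2 proteases or inhibitors were lower and 3 higher. When 1 library was left out, 3 to 5 genes of the lists were called higher and 6 to 11 lower, and Fyn, Parva, Pcolce, Mia3, Mfge8, Hspg2, Sdc3 and Bcam passed in every such fit, while Zyx, Egfl7, Sgcb and Timp2 passed in none.

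**Figure D5:**
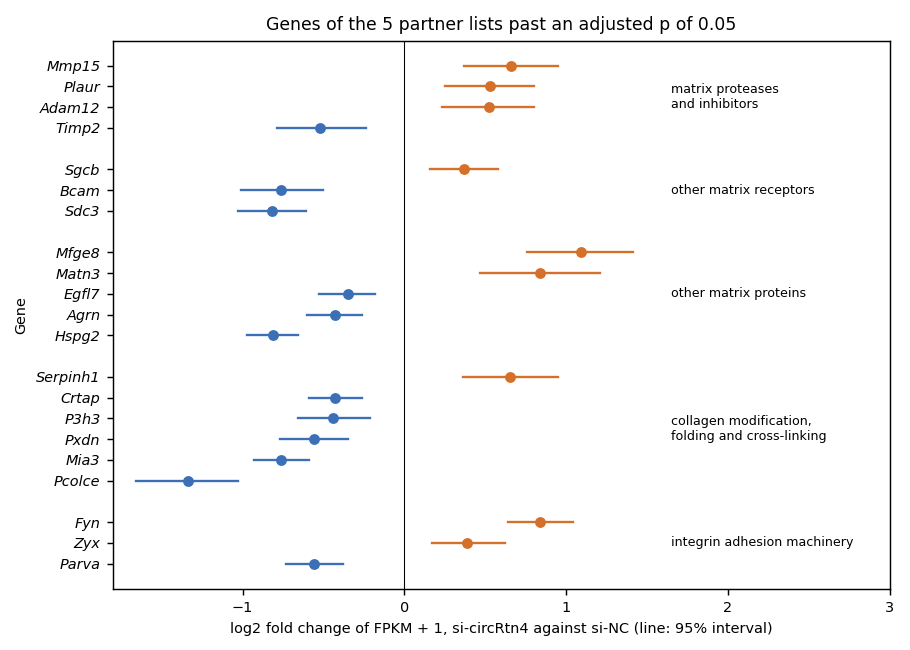
Log2 fold change of FPKM + 1, si-circRtn4 against si-NC, for the 21 genes of the 5 lists called at an adjusted p under 0.05. Points are limma estimates and lines 95% intervals, orange for 9 higher genes and blue for 12 lower genes. Mfge8 is farthest right at 1.09 and Pcolce farthest left at -1.34.

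Some markers of cell types differed between the groups as well. Of the 14 neuroblast markers, 13 had a mean of at least 1 FPKM, and all together summed to 2630 to 2900 FPKM with si-NC and to 1160 to 1690 FPKM with si-circRtn4. Of these 13, 5 were called lower and 1 higher, and the others were not called. Over all genes tested, 4.82% were called lower and 4.36% higher. The marker with the highest level was Chgb, the secretory granule protein secretogranin-1, at 1300 ± 149 and 364 ± 99.4 FPKM. This gene weighs heavily in the sum of the 14 markers. The 10 fibroblast markers summed to 1.68 to 3.13 FPKM with si-NC and to 4.52 to 6.71 FPKM with si-circRtn4. Pdgfrb, called higher at 2.05 ± 0.690 and 4.77 ± 1.22 FPKM, made up most of it, while Prrx1, Twist2, Fap, Postn, Tcf21 and Thy1 were at 0 in all libraries. Markers of Schwann cells (3.05 to 4.01 FPKM over the 6 libraries), endothelial cells (0.446 to 0.921 FPKM) and leukocytes or platelets (0.80 to 2.86 FPKM) were low, with Cdh19, Foxd3 and Emcn at 0. In bulk RNA, fewer cells of a kind and less RNA per cell cannot be told apart. The part of these marker changes in the results on laminins, collagens and integrins was not tested.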

How the data were processed

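RNA sequencing of 6 N2a libraries, 3 of si-NC and 3 of si-circRtn4, was analysed from a gene table. The values deposited by the authors are FPKM, listed beside the length and coordinates of each gene. The submitters' processing notes name Bowtie 0.12.2 and the builds mm8 and mm9. The counting tool and strand setting are not given in the sources used here. The coordinates of all 84 genes matched GENCODE M21 (GRCm38), which was used. The 6 further sample columns in the table belong to no labelled sample and were not used.

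Genes whose mean reached 1 FPKM (12749) entered a linear model on log2(FPKM + 1), fitted by limma 3.58.1 under R 4.3.3 with trended eBayes moderation, so that fold changes of low genes are understated. Benjamini-Hochberg adjustment ran over all of these genes, and a call is an adjusted p under 0.05. Whole reads were recovered from the steps of the deposited values for limma-voom. Single sums and ratios were compared by two-sided exact permutation tests, which cannot go below 0.1 with 3 libraries against 3. The fits were checked on simulated independent libraries with known changes of equal size and no replicate effect. That checks the working of the code and not whether the calls above are right. Genes named were all those called, the highest of each class, partner chains of called genes and the 3 largest changes called in each list. The genes, lists and tests were chosen with earlier results of these data known. Promoters were from RefSeq, and the siRNA sequence was that listed by the study. Python 3.11.15, numpy 2.4.6, pandas 2.3.3 and matplotlib 3.10.9 were used.

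Replicate numbers are shared by the groups. The correlation of deviations from the group mean was 0.331, 0.19 and 0.226 between libraries of the same number and -0.228 to 0.00913 between others. Deviations within a group cancel out in sum, so these values are not independent and do not settle whether the libraries are paired. Calls, p-values and intervals are from the unpaired main fit unless another fit is named. A fit with the numbers as a block was run beside it. Alternatives were the pseudocount (0.1), the filter (0.1 FPKM or none), TPM with and without Gm23935, quantile normalization, limma-voom, the block and leaving out each library.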

Additional observations from a re-analysis of the deposited data

How the results depend on the processing

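The direction of the 9 called integrin and matrix genes was kept in every alternative run. Their groups do not overlap, so fits on the FPKM values, such as those without 1 library, could not have reversed it. All 9 stayed called with a pseudocount of 0.1, quantile normalization, limma-voom and the replicate block. With a filter of 0.1 FPKM, Lamc1 and Col4a1 lost their calls, and 5 genes of the partner lists were higher and 9 lower. With no filter, which adds genes to the adjustment, 210 genes were higher and 261 lower. Of the matrix and integrin genes 1 was higher and 2 were lower, and of the partner genes 2 were higher and 9 lower. With TPM, 876 genes were higher and 359 lower, and 2 of the matrix and integrin genes were higher and 6 lower. The changes of Col20a1 (0.055), Itga3 (0.09), Itga6 (0.029) and Itgb1 (0.056), none of them called, turned positive. Itga3, close to 0 throughout, was also positive with a pseudocount of 0.1 (0.0011), TPM without Gm23935 (0.022), quantile normalization (0.00092) and limma-voom (0.001, and 0.0024 with its filter at 0.1 FPKM). With TPM computed without Gm23935, only Col4a1 lost its call. With limma-voom, 836 genes were higher, and 14 partner genes were higher and 22 lower. With its filter at 0.1 FPKM, chosen after seeing the data, 894 genes were higher and 820 lower. In that fit 6 of the matrix and integrin genes were higher. Those called lower in the main fit stayed lower, joined by Col6a5, Col17a1 and Itgal. Partner genes were called in both directions, 19 of them lower. The replicate block, which pairs the libraries, gave 1185 genes higher and 1243 lower and 18 and 25 partner genes. It added Col6a5, Col17a1 and Rtn4 and changed no other call of a named integrin or matrix gene. Leaving out 1 library gave 163 to 407 genes higher and 217 to 419 lower, 1 to 6 matrix and integrin genes lower, and 3 to 5 partner genes higher and 6 to 11 lower. In these fits 9 of the 22 genes, none of them called with all 6 libraries, changed sign: Col11a2 (-0.37 to 0.16), Col20a1 (-0.20 to 0.18), Col22a1 (-0.014 to 0.17), Itga2b (-0.37 to 0.042), Itga3 (-0.10 to 0.19), Itga6 (-0.10 to 0.014), Itgb1 (-0.11 to 0.027), Itgb3 (-0.27 to 0.04) and Lama5 (-0.017 to 0.27). The cause of these shifts was not tested. The depth left 35 of the 84 genes with too few reads to compare.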
